A study of Bos taurus with 23 samples.

Results

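The most abundant transcripts of cultured bovine endometrium whose mean level stayed close to the medium-only value under each treatment comprised 214 of the 18897 genes counted. They were chosen from the measured values themselves. Levels are given as CPM, a gene's reads per 1000000 reads of its library, by the column total. A gene was a member when its mean Control CPM was at least 500 and its mean with IFNT, AI and IVF each lay no more than 20% below and no more than 25% above the Control mean. Of the 310 genes at 500 CPM or more, 96 missed the second condition. In at least 1 treatment, 32 of these 96 exceeded the upper limit and 67 lay under the lower one. The members nearest to the abundance limit had 500.8 and 501.1 CPM, and the genes just outside it had 498.7 and 498.1 CPM. Of the ratios to Control, the lowest inside were 0.801 and 0.8014, and the nearest outside were 0.799 and 0.7986. At the upper limit the nearest ratios inside were 1.2495 and 1.2471, and those outside were 1.2725 and 1.2888.

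Messenger RNA was sequenced from 23 intercaruncular endometrial explants, punched from uteri in the mid luteal phase and all cultured for 6 h in RPMI medium. The medium held 100 ng/mL of recombinant ovine IFNT in the IFNT group (6 explants). It held a whole conceptus of Day 15, grown after transfer of a blastocyst of in vivo origin in the AI group (4 explants) or of a blastocyst made in vitro in the IVF group (7 explants). The Control group had medium alone (6 explants). Conceptus length ran from 21 to 31 mm in the AI group and from 8 to 54 mm in the IVF group. Its relation to the members was not tested. The titles carry numbers, read here as uteri although the labels do not spell this out. A further code in the titles is the same for all AI explants, while IVF explants carry several, some of them shared. The code was not used here, and AI origin cannot be told apart from it. Uteri 1, 2, 3 and 4 gave explants to all 4 groups, uteri 5 and 10 gave IFNT, IVF and Control explants, and uterus 7 gave a single IVF explant. Libraries are named here by group and uterus number.

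Endometrium is a mixed tissue of luminal and glandular epithelium, stroma, vessels and resident immune cells. Interferon tau, abbreviated IFNT, is the signal by which the trophectoderm of a ruminant conceptus maintains the corpus luteum, and it induces many interferon-stimulated genes in the endometrium. Against such induced genes, abundant transcripts that treatment leaves alone form the base of a library. Because read counts are relative, a rise in one class of transcripts lowers the share of all others. In most tissues the most abundant transcripts include those for ribosomal proteins, translation factors, cytoskeleton and extracellular matrix. Which of these classes the 214 members belong to was not analysed here, because the identifiers could not be paired with gene names, and for the same reason no marker of endometrium or of any of its cell types could be checked. Members are therefore given by their rank in mean Control CPM, and a few by identifier.

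Library totals ran from 19461678 to 36730378 counts. No pair of libraries agreed within sampling noise. IFNT 2 and IVF 5 stood apart. Across all genes tested, 20 of the 22 libraries with a partner were most like another explant of their own uterus, while these were most like each other. Shares of full library totals, calls between uteri, spreads, components and counts over pairs are given with and without them, and other values with them except where stated. In mixed tissue, fewer cells of a type and less RNA per cell cannot be told apart.

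The members made up 24.5% to 30.8% of a library's reads, and a few of them carried much of that share. The gene with the highest Control CPM of all was a member, as were 8 of the 10 highest genes and 33 of the 50 highest. Rank 1 averaged 13573 ± 3515 CPM with IFNT, 18057 ± 5546 with AI, 17487 ± 4919 with IVF and 15021 ± 5941 in Control (SD, n = 6, 4, 7 and 6). Across Control explants 6 members passed 5000 CPM, 82 passed 1000 CPM and 132 lay between 500 and 1000 CPM, with a median of 855 CPM. The 44 highest members carried 50.3% of the members' CPM in Control. CPM was not corrected for transcript length, so these are shares of reads and not numbers of molecules. No member had fewer than 5602 reads in any library, and the median member had 23645 reads. At that depth the counting error of a single value was 0.0095 on the log2 scale, with a highest value of 0.013 among members. It was far below the spreads reported here.

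The share of counts held by the 214 genes was 25.9% ± 1.32 with IFNT (SD, n = 6), 27.1% ± 1.05 with AI (n = 4), 27.2% ± 2.01 with IVF (n = 7) and 28.0% ± 1.5 in Control (n = 6). For uteri 1, 2, 3, 4, 5 and 10 in turn, the IFNT explants had shares of 24.5%, 25.5%, 26.3%, 27.9%, 24.6% and 26.8%. Control explants of the same uteri had 26.1%, 28.7%, 29.4%, 29.2%, 26.1% and 28.6%. The ranges of the 2 groups overlapped, yet within each uterus the IFNT explant lay under its Control. With AI, the shares of uteri 1 to 4 were 25.8%, 26.7%, 27.8% and 28.1%. IVF explants had 24.9%, 26.7%, 27.6% and 27.3% for uteri 1 to 4, then 25.05% for uterus 5, 28.1% for uterus 7 and 30.8% for uterus 10. That last value was the highest of all 23 libraries.

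**Figure D1:**
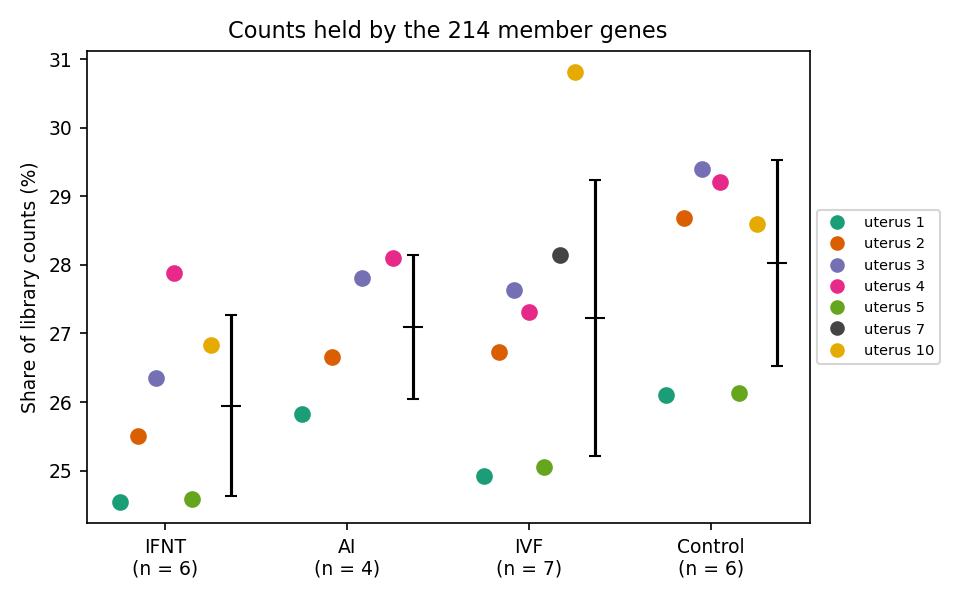
Share of each library's counts held by the 214 genes, in percent, by group. Each point is a library, coloured by uterus, and the bar beside each group is its mean and SD. The points of uteri 1 and 5 are the lowest in every group that has them, and the IVF explant of uterus 10 is the highest point at 30.8%.

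Within uteri, the share was 2.08 ± 0.823 percentage points below Control with IFNT (mean difference -2.08, SD over 6 uteri), and lower in 6 of 6 uteri. The mean difference was -1.25 ± 0.75 points with AI, lower in 4 of 4 uteri, and -0.95 ± 1.59 points with IVF, lower in 5 of 6 uteri. The exception was uterus 10, where the IVF explant lay 2.21 points above Control. Without IFNT 2 and IVF 5 the share averaged 26.04% ± 1.45 with IFNT (n = 5) and 27.6% ± 1.93 with IVF (n = 6), and the mean difference from Control was -1.85 ± 0.69 points with IFNT, lower in 5 of 5 uteri, and -0.921 ± 1.78 points with IVF, lower in 4 of 5. These differences come from the group means that chose the members, so they are a description without a test.

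Genes called higher with treatment held a larger share there. They were called from these same libraries, so that larger share follows from their choice and is no test. In edgeR fits with treatment group alone in the model, 570 genes were called higher in any of the 3 comparisons with Control. They held 9.21% ± 2.03 of counts with IFNT, 8.85% ± 1.37 with AI, 8.47% ± 1.23 with IVF and 2.997% ± 0.173 in Control. With the uterus also in the model, 704 genes were called higher with IFNT, 1135 with AI and 794 with IVF, against 467, 418 and 445. That longer list was not used here. The 570 genes were then left out of the library totals and of the members. The remaining members held 28.4% ± 1.55 with IFNT, 29.5% ± 0.942 with AI, 29.6% ± 2.19 with IVF and 28.7% ± 1.53 in Control. The mean difference within uteri was then -0.337 ± 1.18 points with IFNT, 0.471 ± 0.936 points with AI and 0.573 ± 1.54 points with IVF. The members lay lower than Control in 4 of 6, 1 of 4 and 3 of 6 uteri on this reduced total. Each of these differences was smaller than its SD over uteri. Only genes called higher were left out, which by itself raises the members' share most in treated explants, so these values are a description. Of the 570 genes, 1 was itself a member and is not counted in the shares on the reduced total.

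The small shift of the members below Control also depended on the scale. On column totals the median ratio to Control was 0.935 with IFNT, 0.896 with AI and 0.931 with IVF. Members below a ratio of 1 numbered 175, 164 and 166 of 214 in the same order. Scaling by trimmed mean of M-values (TMM), which sets the bulk of genes level between libraries, moved the log2 ratios up by 0.07 with IFNT, 0.11 with AI and 0.13 with IVF. Then 135 members lay below Control with IFNT, 132 with AI and 76 with IVF, so that 90 members changed side with IVF, against 40 with IFNT and 32 with AI. The tests, the fold ranges over uteri, the SDs and the components use TMM scaling, whereas the coefficient of variation, the ratios of explant pairs and the CPM of single genes use column totals.

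Between uteri, the levels of many members differed, by a smaller median fold than in all genes tested. The level of each uterus was fitted on the log2 scale together with treatment group. Among the 6 uteri with 3 or more explants, the highest and the lowest fitted levels were a median of 1.42-fold apart in members. The same median was 1.92-fold in the 96 other genes at 500 CPM or more and 1.62-fold in all genes tested. Over members the 10th to 90th percentile range was 1.24 to 2.53, with an extreme of 4.34. Of the 214 members, 89 (41.6%) differed more than 1.5-fold between uteri, against 62.3% of all genes, and 43 (20.1%) more than 2-fold, against 25.04%. Without IFNT 2 and IVF 5 the median was 1.46-fold, with 98 members over 1.5-fold and 44 over 2-fold. Between the highest and the lowest of the 4 group means the median was 1.13-fold in members, 1.38-fold in the other abundant genes and 1.28-fold in all genes. The rule held that range down in members, so it is no measure against which to set the range over uteri.

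Tested in a model of treatment group and uterus, 117 of the 214 members (54.7%) differed between uteri at an adjusted p under 0.05 (edgeR quasi-likelihood F test, Benjamini-Hochberg over 15227 genes), where 54.8% of all genes tested did. Among the 96 other genes at 500 CPM or more, 66 did (68.8%). The rule did not use the uterus numbers, but not every uterus gave explants to every group. A gene that differs between uteri can thus miss the limits more easily, so the members' share is a description. By rank, 16 of the 20 highest members, 38 of the 62 others over 1000 CPM and 63 of the 132 members at 500 to 1000 CPM were called. The members' count moved with the libraries and the tool. Without IFNT 2 and IVF 5 it was 167 members (78.0%) against 58.3% of all genes, and with DESeq2 it was 162 members (75.7%) against 66.4%. From Control and IFNT explants alone it was 53 members (24.8%) against 31.2%.

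The SD of a member's log2 CPM was split into a part between uteri and a part between explants of the same uterus, with treatment means removed. The median SD between uteri was 0.16, or 12.1%, with a jackknife SE over uteri of 0.013, and the median SD between explants of a uterus was 0.17, or 12.7%. The uterus took a median of 50.1% of this variance. In 107 of the 214 members the part between uteri was the larger, and in 5 it was estimated at 0. The 10th to 90th percentile range was 0.068 to 0.444 between uteri and 0.112 to 0.342 between explants. Without IFNT 2 and IVF 5 the median was 0.18 between uteri and 0.14 between explants.

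Genes of like abundance outside the rule spread more on both counts. Their median SD was 0.32 between uteri and 0.31 between explants, and the uterus took a median of 49.1% of the variance. Over all genes tested the medians were 0.21 and 0.25, with 45.2% for the uterus. Among Control explants alone the median coefficient of variation was 15.8% for members, 28.6% for the other abundant genes and 26.2% for all genes tested. A gene with a wide spread has noisier group means and misses the limits around the Control mean more easily, so the rule itself favours a small spread and these figures are a description.

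**Figure D2:**
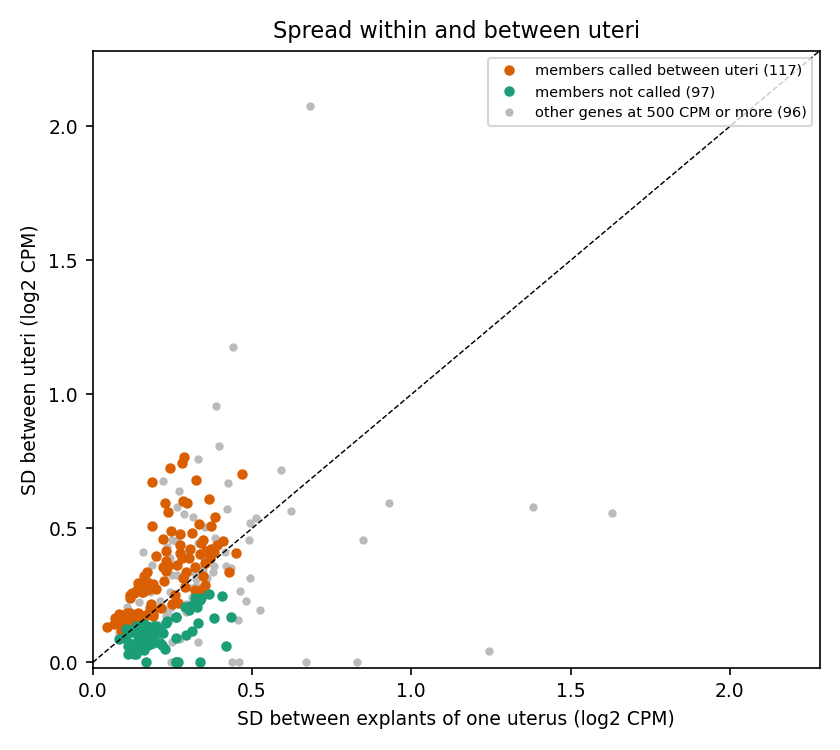
SD between uteri (vertical axis) against SD between explants of the same uterus (horizontal axis), both in log2 CPM with treatment means removed. Each point is a gene at 500 CPM or more in Control: members called between uteri (117), members not called (97) and the 96 other genes. On the dashed line both SDs are equal, and 107 members lie above it.

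ENSBTAG00000013641 (rank 111) had the largest SD between uteri. Its CPM was 344 to 374 in the 3 explants of uterus 5 and 430 to 571 in the 4 of uterus 1, while uterus 4 had 1132 to 1639 and the single explant of uterus 7 had 1613. Explants of uteri 2 and 3 lay between, at 889 to 1316 and 828 to 1074 CPM, and those of uterus 10 had 567 to 962 CPM. No explant of uterus 5 or 1 reached any explant of uteri 2, 3, 4 or 7. By group it averaged 794 ± 465 CPM with IFNT, 1002 ± 390 with AI, 975 ± 427 with IVF and 844 ± 473 in Control. The uteri were 4.25-fold apart and took 87.7% of its variance (edgeR adjusted p for uterus = 1.23e-05).

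ENSBTAG00000000434 (rank 130) came second. It had 299 to 360 CPM in uterus 5 and 317 to 378 CPM in uterus 1, against 682 to 1247 CPM in uterus 2, 683 to 854 in uterus 3 and 825 to 1470 in uterus 4. The order of uteri was close to that of ENSBTAG00000013641, with uteri 5 and 1 lowest and uterus 4 highest among those with several explants. The range was 3.66-fold (edgeR adjusted p = 1.46e-05).

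At the other end stood ENSBTAG00000034185 (rank 10) and ENSBTAG00000019648 (rank 39), 2 of the 5 members whose SD between uteri was estimated at 0, shown because their adjusted p for the uterus was the highest of the 5. The first had 2408 to 5051 CPM over the 22 explants of the 6 uteri with several. Its fitted uterus levels lay 1.15-fold apart (edgeR adjusted p = 0.901), or 1.26-fold without IFNT 2 and IVF 5. Its spread lay within uteri instead. Uterus 2 alone held 5051 CPM with IFNT, 3303 with AI, 2662 with IVF and 4071 in Control. For the second, uterus 2 held 2377 CPM with IFNT, 1240 with AI, 1109 with IVF and 1515 in Control, and the uteri were 1.21-fold apart (edgeR adjusted p = 0.684), or 1.39-fold without IFNT 2 and IVF 5. In both genes the highest of all explants was IFNT 2. These 4 genes were chosen for their spread, so they show its ends and are no test of it.

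**Figure D3:**
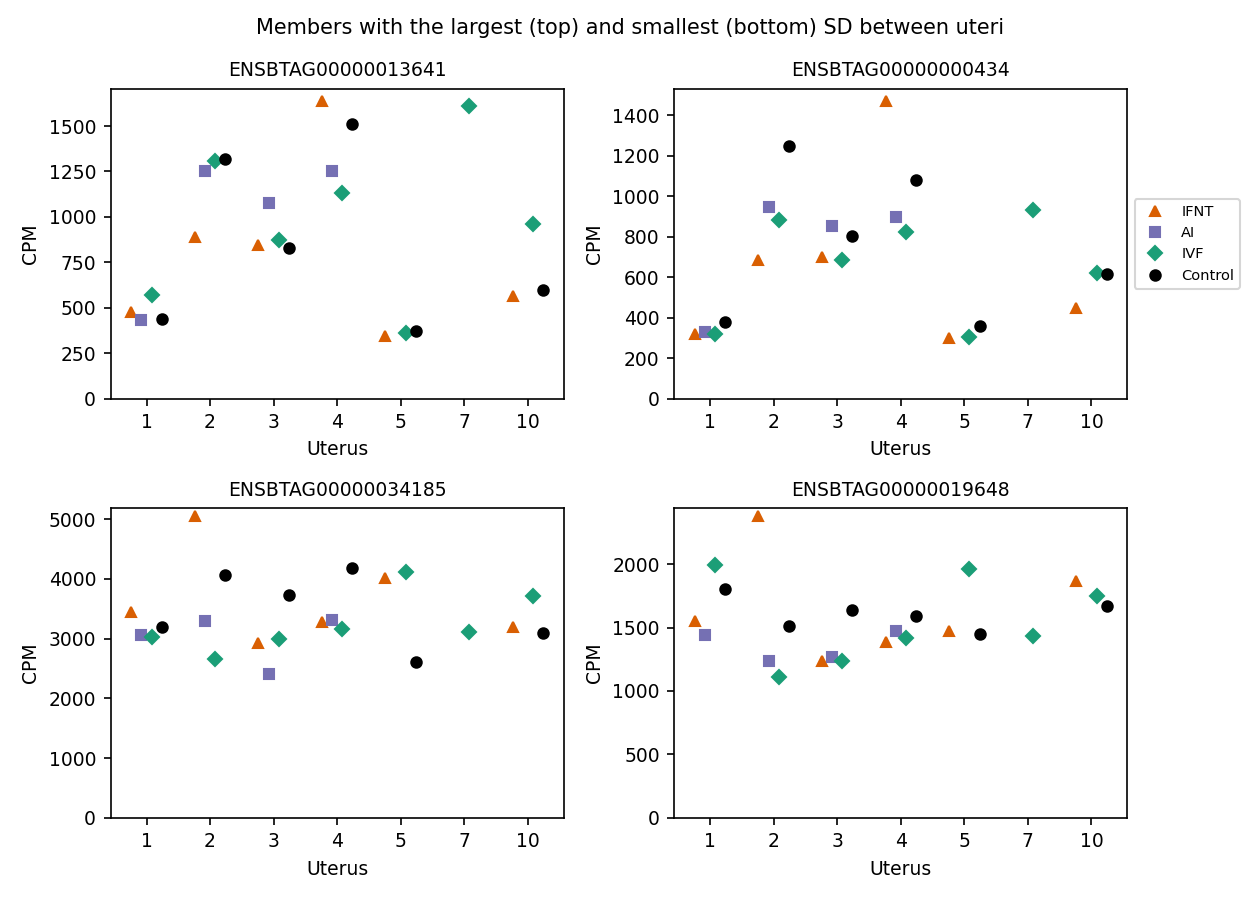
CPM by uterus of the members with the largest (top row) and of 2 members with the smallest (bottom row) SD between uteri, each vertical axis starting at 0. Each point is an explant, with its group shown by shape and colour. In the top row all explants of uteri 1 and 5 sit under those of uteri 2, 3 and 4, while in the bottom row the uteri overlap and IFNT 2 is the highest point.

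The 4 highest members, which carried 15.96% of the members' CPM in Control, all differed between uteri, as did 54.8% of all genes tested. Rank 1 had its highest value, 25449 CPM, in IVF 2 and its lowest, 6304 CPM, in Control 1, and its uteri were 2.19-fold apart (edgeR adjusted p = 0.00712). Rank 2 had 6774 to 7613 CPM in uterus 1 and 7636 to 9257 in uterus 5, against 15252 to 17388 in uterus 4. The uterus took 88.3% of its variance (edgeR adjusted p = 2.5e-05). Rank 4 had 3573 to 4605 CPM in uterus 1 and 3740 to 4520 in uterus 5, against 7744 to 14349 in uterus 2 and 10891 to 13483 in uterus 4 (edgeR adjusted p = 5.35e-06). Ranks 2 and 4 thus shared low levels in uteri 1 and 5. For rank 1, uterus 1 had the lowest mean at 9267 CPM, but explants of uterus 5, at 11450 to 14728 CPM, overlapped those of uterus 10, at 10849 to 22034 CPM. Rank 3 had another order, with its lowest means in uteri 5 and 2, at 6220 and 6346 CPM, and its highest mean in uterus 3, at 11939 CPM (edgeR adjusted p = 0.0011). Uterus 1 was not low there, with a mean of 10173 CPM.

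The SD between explants of the same uterus was smallest for rank 142 and largest for rank 169. Rank 142 had an SD of 0.044 within uteri and of 0.13 between them. It had 710 to 778 CPM in the 4 explants of uterus 1 and 574 to 605 CPM in those of uterus 2. Rank 169 had an SD of 0.47 within uteri, and in uterus 3 alone it had 451 CPM with IFNT, 1019 with AI, 806 with IVF and 1276 in Control.

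Principal components of the members' log2 CPM, with group means removed, followed the uterus. The first took 30.9% of the variance, and 83.5% of it lay between uteri. The explants of uterus 5 scored 4.61 with IFNT, 6.26 with IVF and 4.36 in Control, while those of uterus 3 scored -3.32, -1.90, -3.32 and -3.27 with IFNT, AI, IVF and in Control. IFNT 2 scored 3.67 on this component, between uterus 5 and the rest, whereas the other explants of uterus 2 scored from -0.035 to 1.21. The second component took 25.5%, with 92.6% of it between uteri, and set uterus 1 (2.76 to 4.21) against uteri 2 and 4 (-3.63 to -1.29). Across members alone, 19 of the 22 libraries with a partner were most like one of their own uterus. The exceptions were all of uterus 2, with IFNT 2 most like AI 4, and IVF 2 and Control 2 most like IFNT 4. Without IFNT 2 and IVF 5 the first component took 30.6% of the variance, with 94.9% of it between uteri, and the second 24.7%, with 84.9%.

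**Figure D4:**
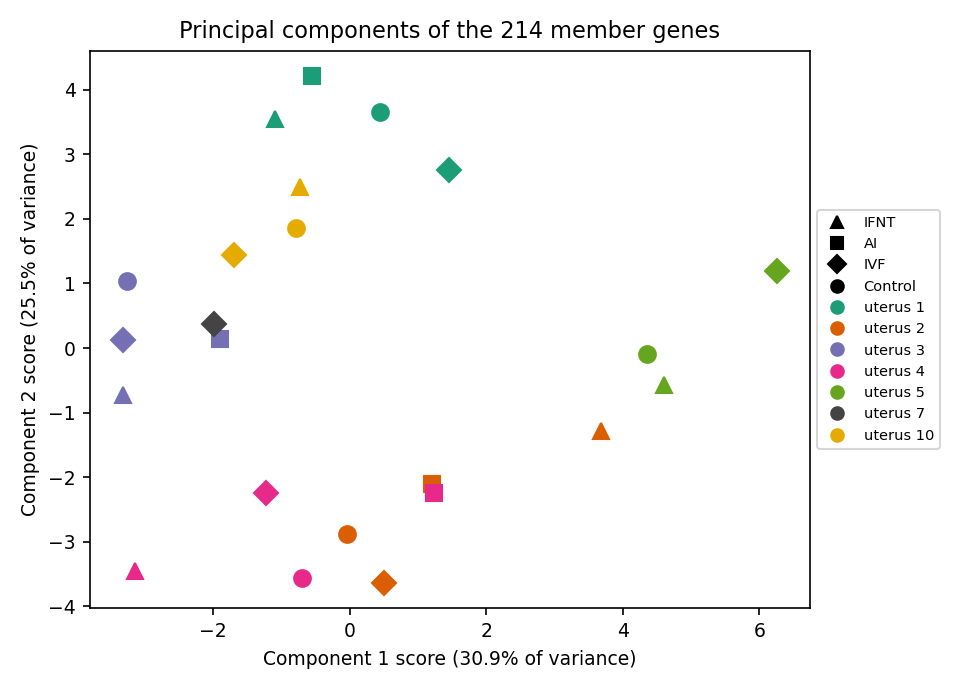
Scores of the 23 libraries on the first and second principal components of the 214 genes, on log2 CPM with group means removed. Colour marks the uterus and shape the group. Explants of a uterus mostly lie together, while IFNT 2 scores 3.67 on the first component, near the explants of uterus 5.

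The direction of displacement differed by uterus. Uteri 2 and 5 had the lowest fitted level more often than the highest, whereas uteri 1, 3, 4 and 10 showed the reverse. The highest fitted level of the 6 uteri fell to uterus 10 in 92 members, uterus 3 in 49 and uterus 1 in 30. It fell to uterus 4 in 25 members, uterus 5 in 15 and uterus 2 in 3. The lowest fitted level fell to uterus 5 in 91 members and to uterus 2 in 71. It fell to uterus 1 in 22, uterus 4 in 14, uterus 10 in 9 and uterus 3 in 7. These counts are given only with IFNT 2 and IVF 5, which belong to the 2 uteri most often lowest. Members not called between uteri are included. Among called members, uterus 5 was lowest for 55 and highest for 8, and uterus 2 for 29 and 2. Uterus 10 was lowest for 5 called members and highest for 41, and uterus 1 for 18 and 15.

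Closeness of group means did not carry over to each pair of explants. Of the 16 pairs of a treated explant and the Control of its uterus, the number of members within the same limits, 20% below to 25% above the Control explant, ran from 117 of 214 in IFNT 2 to 192 in IFNT 1. The other IFNT pairs, of uteri 3, 4, 5 and 10, had 138, 161, 174 and 186. In the AI pairs of uteri 1 to 4 it was 174, 149, 134 and 174. The IVF pairs had 158, 127, 130 and 188 for uteri 1 to 4, and 149 and 172 for uteri 5 and 10. Of all genes tested, 40.8% to 64.4% lay within the same limits in a pair.

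A member stayed within the limits in a median of 12 of the 16 pairs and in no fewer than 4. In every pair of a treatment it was 57 members with IFNT, 80 with AI and 36 with IVF, over 6, 4 and 6 pairs. Only 10 of the 214 members stayed within the limits in all 16 pairs, and 64 did so in at least 14. The rule used group means of these same libraries, which favours members here. Counts over several pairs are not given for other genes, so these are a description. Without IFNT 2 and IVF 5, 86 did in all 5 IFNT pairs, 50 in all 5 IVF pairs and 15 in all 14 pairs left, with a median of 11 pairs a member. Rank 142 was among the 10. ENSBTAG00000034185 and ENSBTAG00000019648, whose SD between uteri was estimated at 0, stayed within in 8 and 9 pairs.

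**Figure D5:**
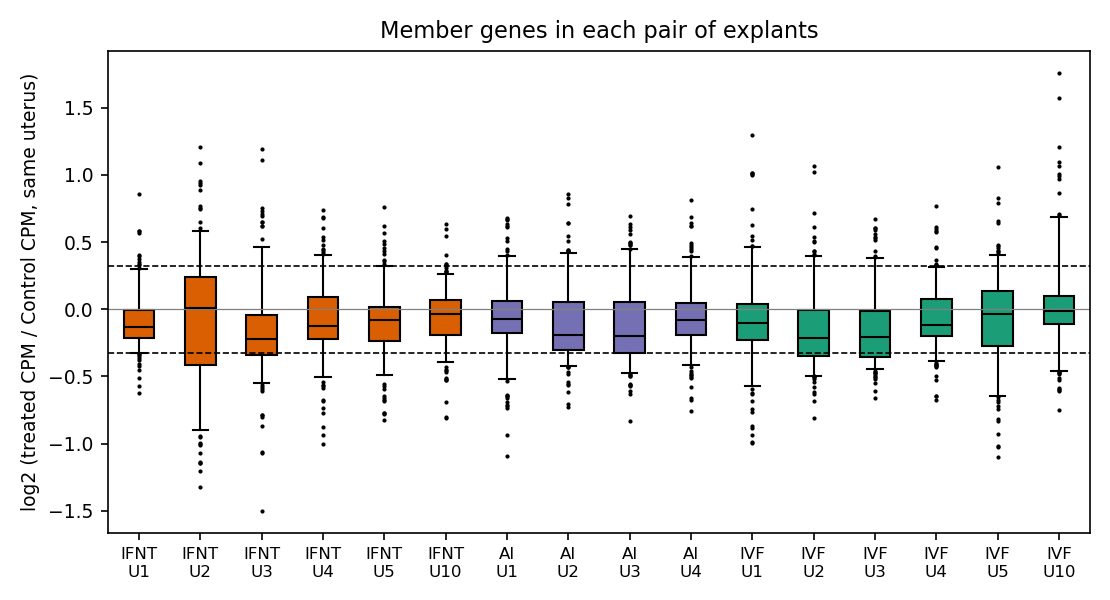
Log2 ratio of a treated explant's CPM to the Control CPM of the same uterus (U), for the 214 genes in each of 16 pairs. Boxes span the quartiles with the median as a line, whiskers run from the 5th to the 95th percentile, dots are genes beyond them, and dashed lines mark the limits of 20% below and 25% above Control. The box of IFNT 2 is the widest, and 117 of its genes lie between the lines.

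The rule used the comparisons with Control, so calls there are given only for completeness. With IFNT, 0 of the 214 members were called (edgeR, group model), against 3.21% of all genes tested, and 4 members (1.87%) had an unadjusted p under 0.05, against 8.8% of all genes. With IVF, 0 were called by edgeR, against 3.37% of all genes, and 4 (1.87%) had an unadjusted p under 0.05, against 11.3%. Between AI and IVF explants edgeR called 0 members and 0% of all genes, and 1 member (0.467%) had an unadjusted p under 0.05, against 2.25%. DESeq2 called 1 member with IFNT, against 3.74% of all genes, 1 with AI, against 4.58%, 0 with IVF, against 4.33%, and 0 members and 0% of all genes between AI and IVF. With AI, 1 member was called, against 3.15% of all genes, and it was higher, as were 2.75% of all genes.

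That member was ENSBTAG00000012683 (rank 49), named after its values were seen. It had 1863, 1985, 1748 and 1685 CPM in the AI explants of uteri 1 to 4, against 1578, 1532, 1256 and 1287 CPM in their Controls. All 4 AI explants lay above the Control of their uterus, while over the groups the ranges overlapped because Control 5 had 1797 CPM. The log2 fold change was 0.41 ± 0.11 (SE, edgeR adjusted p = 0.0405). The gene averaged 1744 ± 189 CPM with IFNT, 1820 ± 132 with AI, 1627 ± 210 with IVF and 1479 ± 202 in Control. DESeq2 called the same gene with AI (adjusted p = 0.00475), and so did edgeR without IFNT 2 and IVF 5 (adjusted p = 0.031), without Control 5 and without AI 4. It was also the member that DESeq2 called with IFNT (adjusted p = 0.0302). The edgeR call with AI was lost with median-ratio scaling, without the filter on low counts and when any 1 of 8 libraries was left out, AI 1, 2 and 3 or Control 1, 2, 3, 4 and 10.

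When the uterus was added to the model as a block, which the shared uterus numbers call for, more genes were called overall and a few more members with them. Among members 3 were called with IFNT, all higher, against 5.75% of all genes and 4.62% called higher. With AI 5 were called, against 11.2% of all genes. These were 4 higher and 1 lower, against 7.45% higher and 3.77% lower. With IVF 1 was called, higher, against 7.45% of all genes and 5.21% called higher. With IFNT they were ranks 49, 149 and 186, at log2 fold changes of 0.31, 0.32 and 0.34. With AI, ranks 49, 74, 190 and 195 were higher, by 0.41, 0.51, 0.35 and 0.38, and rank 98 was lower, at -0.29. With IVF it was rank 145, at 0.46. ENSBTAG00000012683 was thus called with IFNT (edgeR adjusted p = 0.0418, higher in 6 of 6 uteri) and with AI (edgeR adjusted p = 0.0137, higher in 4 of 4). These genes, too, were named after their values were seen.

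The sex of the conceptus, which the rule did not use, gave no call. Between explants cultured with male (6) and with female (5) conceptuses, edgeR called 0 of the 214 members and 0% of all genes. DESeq2 also called 0 members and 0% of all genes. At an unadjusted p under 0.05 there were 20 members (9.35%), against 7.21% of the 15099 genes tested. With the uterus as a block the order turned, with 19 members (8.88%) against 11.6% of all genes. Again edgeR called 0 members and 0% of all genes. The median size of the log2 fold change, without the block, was 0.17 in members and 0.18 in all genes. The member with the smallest p was rank 45, with a log2 fold change of 0.26 ± 0.09 (SE, male over female, edgeR adjusted p = 0.642). Sex was unevenly spread over origin, with 1 male and 3 female conceptuses in AI and 5 male and 2 female in IVF. Uteri 5, 7 and 10 had male conceptuses only, so sex is partly mixed with uterus.

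Membership itself rested on the libraries. The rule applied to TMM-scaled values gave 209 genes, of which 179 were shared (83.6% of the 214 and 85.6% of the 209). From uteri 1 to 4 alone it gave 190 genes with 175 shared (81.8% and 92.1%), and without IFNT 2 and IVF 5 it gave 225 with 209 shared (97.7% and 92.9%). With limits of 10% below and 11% above Control it left 34 genes. Of the 214 members, 112 were kept whichever single library was left out.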

How the data were processed

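The authors deposited whole-number read counts, not normalized, for 18897 Ensembl gene identifiers in 23 libraries made with a stranded TruSeq mRNA kit, per the labels' protocols. HISAT2, StringTie, edgeR and the build UMD3.1 stand in the submitters' processing notes, without version or role. Not given in the sources used here were the counting tool, annotation release, strand setting and filters, so overlapping genes and near-identical copies may share reads. Groups and uterus numbers come from the labels. The labels do not say that each number is an animal.

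The counts were fitted with edgeR 4.0.16 in R 4.3.3 (TMM, filterByExpr, quasi-likelihood F test, Benjamini-Hochberg adjusted p under 0.05), with DESeq2 1.42.0 as an alternative. All 23 libraries entered each main fit, and fits on fewer libraries are named where their values are given. filterByExpr kept 15227 genes for groups by origin and 15099 for groups by sex, and all 214 members passed it. The filter removed no member, but it sets how many genes share the dispersion fit and the adjustment, and so bears on the members' calls. Spreads were computed in Python 3.11.15 on log2(CPM + 0.5) with TMM-scaled totals, by the method of moments. CPM values printed for single libraries use column totals. In fits with the uterus as a term, uterus 7, with 1 library, was fitted exactly and added nothing to the error.

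Libraries with the same uterus number deviated together from their group means in all 30 pairs (r = 0.15 to 0.76 across genes, median 0.53). For different numbers the median was -0.096 and the highest r was 0.554. By the medians the numbers pair the libraries, but the ranges overlapped. Across the 214 members alone r ran from -0.059 to 0.864 for the same number, with a median of 0.608. For different numbers the members' median was -0.107 and the highest r was 0.746. In fits without the block, p-values rest on the spread between explants and treat explants of a uterus as independent. A chi-square test over 253 pairs of libraries gave 21.3 to 357 per degree of freedom, so none was a duplicate. The models were also run on data simulated from the means and dispersions of these counts, with results not given here.

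The reference table of gene symbols matched 0 identifiers. The rule for named genes (highest members, ends of each spread, called members, members of function lists) could not be applied with names, and 14 function lists and 9 marker lists could not be used. Instead 2 identifiers at each end of the spread between uteri and 1 called member are printed. Members, lists and tests were chosen with earlier results of these data known.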

Additional observations from a re-analysis of the deposited data

Results flagged for a closer look

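Of 56 groups of 4 to 7 explants, 3 held an explant far from the rest of its group by Dixon's gap criterion. The groups were 44 of the 11 members described singly and 12 of the members' share, the library total and the TMM factor. Independent draws would give about 1 in 20. That rate does not apply here, because the members were picked for rank, spread or a call and the same uteri recur over groups. ENSBTAG00000000434 had 1470 CPM with IFNT in uterus 4, while the other IFNT explants had 299 to 702 CPM. The same gene had 330 CPM with AI in uterus 1, while the other AI explants had 854 to 948 CPM. Rank 169 (ENSBTAG00000007596) had 1301 CPM with IFNT in uterus 5, while the other IFNT explants had 278 to 615 CPM. In each case the Control of the same uterus lay on the same side of its group's median, at 1077, 378 and 962 CPM against medians of 710, 710 and 421 CPM.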

How the results depend on the processing

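Of 196 alternative values, 171 were labelled as the same and 25 as moved, by limits not given here. These limits were wide for some counts, so the 171 is no measure of how close the values stayed. Labelled as the same were 167 members called between uteri without IFNT 2 and IVF 5 and 162 with DESeq2, against 117. So were 180 members by medians of CPM, against 214. With the uterus as a replicate block, the members called were 3 with IFNT, 5 with AI and 1 with IVF. The count with IFNT was 1 under DESeq2 and 1 without IFNT 2 and IVF 5, and 0 to 1 with single libraries left out. The count with AI was 0 with median-ratio size factors, 0 without the filter on low counts and 0 to 1 with single libraries left out. The members called between uteri numbered 53 from Control and IFNT explants alone and 84 to 136 with a uterus left out. The median SD between uteri was 0.143 on column totals, 0.181 without IFNT 2 and IVF 5, and 0.150 to 0.166 with a uterus left out. The 570 genes called higher were also left out of both the totals and the members. The share was then 29.0% over all libraries, 28.4% with IFNT, 29.5% with AI and 29.6% with IVF. Limits of 10% below and 11% above Control left 34 members. The values without IFNT 2 and IVF 5, and those without the genes called higher, were chosen after seeing the data. The cause of these moves was not tested.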
